A study of Mus musculus with 8 samples.

Results

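The actin machinery of mouse Langerhans cells was examined through 58 genes that encode the cytoplasmic actins, the factors that nucleate, elongate, cut, bind and bundle actin filaments, the myosins that pull on them, and the kinases that steer both. The members were taken by name from a fixed list, and all 58 were found among the 25247 genes of the deposited count table. Langerhans cells are the dendritic cells of the epidermis. The cells came from ear epidermis of C57BL/6 mice that were wild type (WT) or lacked Ezh2 (labelled EZH2 -/- or KO), and were sorted as live CD45+ cells that carried MHC class II, CD24 and EpCAM but neither Ly6G nor CD103. The labels give neither the Cre driver or origin of the deletion nor the age or sex of the mice, or whether each library is its own animal, and the p-values below cover only variation from library to library, which may be technical.

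There were 8 libraries, and the genotype of 4 of them was open. Title and description agreed that RMN030 and RMN031 were WT and that RMN038 and RMN039 were KO. For RMN032 and RMN033 the title code gave KO and the description code WT, and for RMN036 and RMN037 the title code gave WT and the description code KO. Every comparison was therefore made in the 4 undisputed libraries (2 WT, 2 KO) and in both readings of all 8 (4 WT, 4 KO each). Codes 030 to 033 are called the earlier run here and codes 036 to 039 the later. Genotype and run cannot be told apart among the undisputed libraries or by description code, whereas by title code each run holds 2 WT and 2 KO libraries. Values per library are given below in code order, with the earlier run first.

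Cells move by building branched actin networks at their front and contracting them from behind. The Arp2/3 complex starts new branches when it is switched on by proteins of the WASP and WAVE families, and formins elongate unbranched filaments. Cofilins and gelsolin cut old filaments, profilin, thymosins and cyclase-associated protein manage the free monomers, and coronins, plastins and alpha-actinins shape what remains. Non-muscle myosin II contracts the network, and class I myosins tie it to the membrane. A Langerhans cell uses this machinery to extend dendrites between keratinocytes and, once activated, to leave the epidermis for the lymph node. The series asked how Ezh2, the histone H3K27 methyltransferase of Polycomb repressive complex 2, affects that migration.

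Library totals ran from 11051402 to 18966195 counts, and the 58 genes took 3.39% to 3.76% of them. Mitochondrial genes took 1.02% to 1.87% of counts in the earlier run and 3.76% to 4.03% in the later. Langerhans cell markers such as Cd207 and Epcam summed to 78418 to 99894 CPM (counts divided by the library total and scaled alike in every library) and all 10 were detected, while keratinocyte markers summed to 14725 to 18976 CPM. The 14 T lineage markers summed to 363 CPM in RMN030 and 354 CPM in RMN031, against 38.6 to 52.3 CPM in the other libraries. Blood markers summed to 122 to 226 CPM in the earlier run and 580.2 to 1355 CPM in the later. Ezh2 itself was detected in every library, at 15.7, 22.4, 15.2 and 14.9 CPM in the earlier run and 19.0, 17.6, 12.7 and 10.5 CPM in the later. Its 2 undisputed KO libraries were the lowest of the 8, but no fit called it (edgeR log2 fold change, KO minus WT, -0.66, SE 0.31, adjusted p = 0.455 in the undisputed libraries). All 4 title-code KO libraries were below all 4 WT libraries (-0.49, SE 0.18, unadjusted p = 0.0208, edgeR adjusted p = 0.998), while the description-code groups overlapped (-0.15, SE 0.22, edgeR adjusted p = 0.869). In bulk libraries fewer cells of a type and less RNA per cell cannot be told apart. The part of these other cell types in any level or difference reported here was not tested.

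In these bulk libraries of sorted Langerhans cells, 1 gene led in several of the gene families of the actin machinery. In the families listed next the leading gene was the same in every library. The part of keratinocytes and other cells in its level was not tested. The highest formin gene was Fmnl1, followed by Diaph1. The highest alpha-actinin gene was Actn4, the highest Ena/VASP gene Vasp, the highest WAVE gene Wasf2 and the highest LIM kinase gene Limk2. Fmnl2, Fmnl3, Actn1, Evl, Enah, Wasf1 and Limk1 lay far below the highest gene of their family. No difference between WT and KO was called by edgeR for any of the 58 genes under either reading of the labels. Of the 57 members tested, 0 were called at an adjusted p below 0.05 in the undisputed libraries, where 0.794% of all 14727 genes tested were called (0.448% higher and 0.346% lower in KO). In the title-code reading 0 were called, against 0% of 14630 genes, and with the code run as a covariate 0 again, against 0%. In the description-code reading 0 were called, against 2.02% of 14630 genes (1.43% higher and 0.595% lower). DESeq2 and limma voom each called 2 members in the undisputed libraries, Actr3 and Dstn, both higher in KO, and DESeq2 called 2 by description code, Actr3 and Ezr. Neither called a member by title code. Wasf1 was not tested, with 0 to 6 counts per library.

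**Figure D1:**
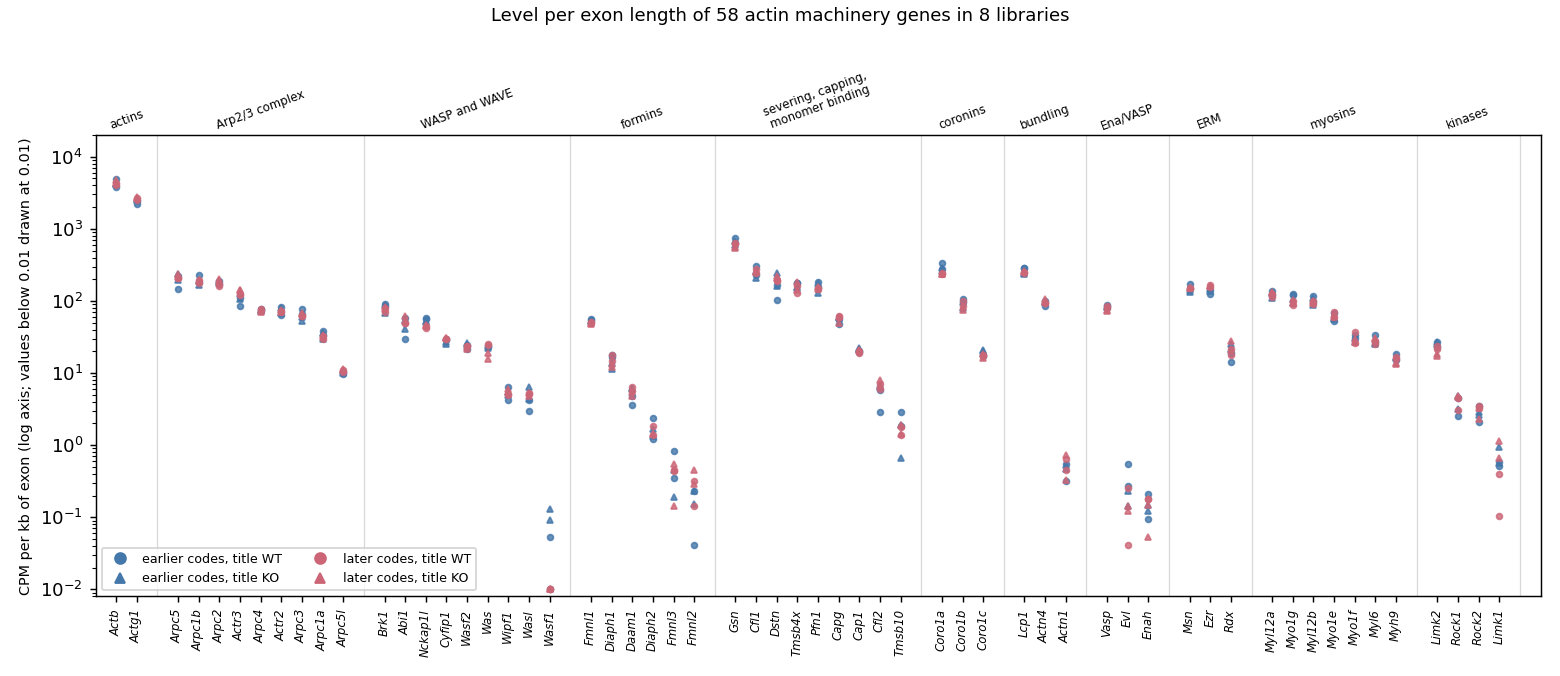
Level of each of the 58 genes per exon length, grouped by role. Each point is 1 library, the axis is CPM per kb of exon on a log scale with values below 0.01 drawn at 0.01, circles and triangles are the title-code WT and KO libraries, and colours are the code runs. The 8 points of most genes lie close together, while genes of 1 family, such as Fmnl1 with a mean of 51.8 and Fmnl2 with 0.232, lie far apart.

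The median spread of the members across the 8 libraries was smaller than that of all genes. Among the 56 members with a mean of at least 1 CPM, the median coefficient of variation (SD over mean, n = 8) was 11.3%, against 21.6% over all 13831 genes at that level. Since abundant genes vary less in counting, the same was read among genes of at least 50 CPM, where 43 members had a median of 9.76% and all 3389 genes one of 12.3%. Arpc4, a core subunit of the Arp2/3 complex, had the smallest value of the members at 3.25%, and the formin gene Fmnl2, at 0.229 to 2.53 CPM, the largest at 53.8%. The cut at 50 CPM does not match the members to genes of the same level. These values are a description and were not tested.

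The cytoplasmic actins were the most abundant members. Actb, which encodes beta-actin (ENSMUSG00000029580, GRCm38 chromosome 5, 142903115 to 142906754, minus strand), was at 13045, 10216, 11370.3 and 11193 CPM in the earlier run and 11379, 10867, 11537 and 12864 CPM in the later. Its highest and lowest values were both in undisputed WT libraries, so that the groups overlapped in every reading. Actg1, which encodes gamma-actin (ENSMUSG00000062825, chromosome 11, 120345690 to 120348542, minus strand), was at 6561, 5931, 6783 and 6627 CPM and then at 6769, 7002, 7063 and 7328 CPM. Both undisputed KO libraries were above both WT libraries, but the log2 fold change of 0.25 (SE 0.12) had an adjusted p of 0.490. Per kb of exon Actb was 1.54 to 1.97 times as high as Actg1. The 2 genes encode nearly the same protein from coding sequences that match at 88.7% of 1128 positions, with 62 bases as the longest identical run. Their first 60 coding bases, read from the GENCODE vM21 transcripts, show how close they are (capitals mark the 9 bases that differ).
Actb: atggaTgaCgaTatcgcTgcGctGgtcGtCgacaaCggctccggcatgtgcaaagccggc
Actg1: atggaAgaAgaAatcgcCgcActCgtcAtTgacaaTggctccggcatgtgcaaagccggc

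The count of Actg1 is less certain than that of Actb, because copies of it elsewhere in the genome share its sequence. Of the 50-base windows along its transcripts, 37.4% also occur in another annotated gene, against 9.12% for Actb. A processed pseudogene on chromosome 4, Gm12715 (103563402 to 103564529), was listed at 2635 to 3245 CPM, which is 43.8% to 45.9% of Actg1 in the same library. Gm8399 on chromosome 13 was at 18.7% to 19.1% of Actg1, Actg-ps1 on chromosome 8 at 4.43% to 4.72%, and Gm6375 on chromosome 6 at 2.83% to 3.05%. These shares were nearly constant over the 8 libraries. Together the 4 pseudogenes held 4172 to 5210 CPM, and added to Actg1 they gave 10103 to 12538 CPM, close to the range of Actb.

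**Figure D2:**
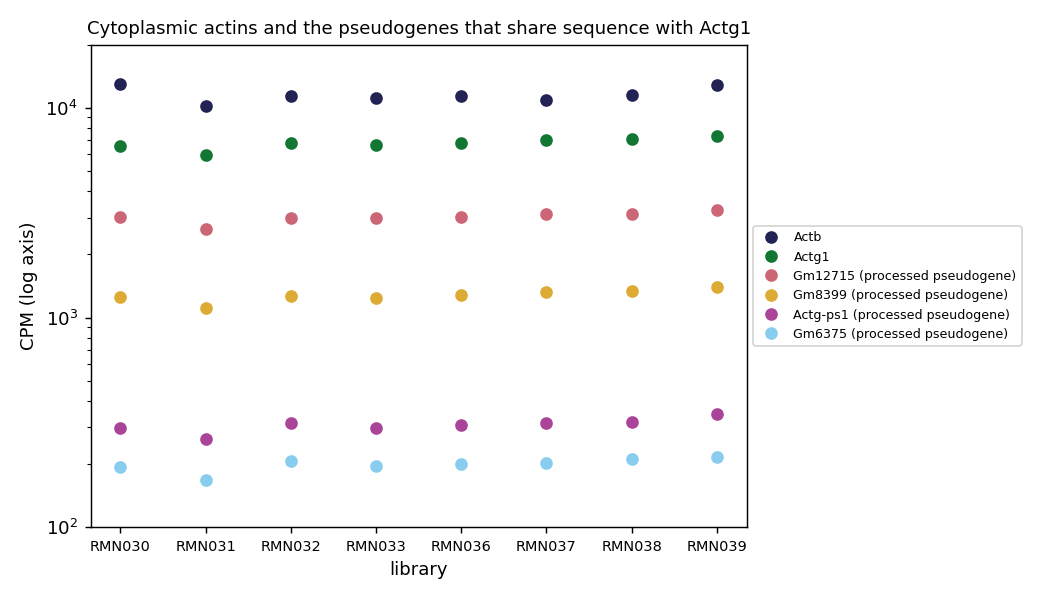
CPM of Actb, Actg1 and the 4 processed pseudogenes that share sequence with Actg1, on a log axis, in each of the 8 libraries. The pseudogenes run parallel to Actg1, with Gm12715 at 43.8% to 45.9% of it throughout.

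All 9 genes of the Arp2/3 group were expressed, and per kb of exon the group summed to 893 to 1033 CPM, within 1.16-fold over the libraries. Where the complex has a choice of subunit, 1 of the pair prevailed: Arpc1b was 5.27 to 6.47 times as high as Arpc1a per kb, and Arpc5 was 14.0 to 23.3 times as high as Arpc5l over all exons and 4.95 to 8.25 times per kb of the principal transcript. Arpc5 (chromosome 1, 152766542 to 152775597, plus strand), the highest of the group per kb of all exons (by principal transcript Arpc1b and Arpc2 were above it), was at 329, 508, 530.4 and 439 CPM and then at 479, 477, 545 and 494 CPM. RMN030 was the lowest of the 8, and the groups overlapped in every reading. Its log2 fold change was 0.36 (SE 0.18, edgeR adjusted p = 0.493) in the undisputed libraries.

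Actr3, which encodes the actin-related subunit Arp3 (ENSMUSG00000026341, chromosome 1, 125392905 to 125435727, minus strand), had the smallest p of the members in the undisputed libraries. It was at 389, 505, 573 and 490.4 CPM in the earlier run and 554, 578, 662 and 649.9 CPM in the later. Both undisputed KO libraries were higher than every other library, and RMN030 was the lowest. The edgeR log2 fold change was 0.60 (SE 0.14, edgeR adjusted p = 0.101) in the undisputed libraries, 0.23 (SE 0.09, edgeR adjusted p = 0.754) by title code with the run as a covariate, and 0.37 (SE 0.11, edgeR adjusted p = 0.112) by description code. DESeq2 called it in the undisputed libraries (adjusted p = 0.00475) and by description code (adjusted p = 0.0300). Its partner Actr2, which encodes Arp2, stayed within 327 to 425 CPM with overlapping groups. Of the windows of Actr3, 26.3% are shared, mostly with the pseudogene Gm8822 on the X chromosome, which was listed at 20.1% to 21.4% of Actr3 in every library.

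Among the switches of the Arp2/3 complex, the WAVE gene Wasf2 was above the WASP gene Was in CPM. Per kb of exon they were close, with means of 23.6 for Wasf2, 22.3 for Was and 4.81 for Wasl. Wasf2 was at 134 to 165 CPM, and its partners in the WAVE regulatory complex were at 302 to 363 CPM for Cyfip1, 251 to 341 CPM for Nckap1l, 119.9 to 250.2 CPM for Abi1 and 74.8 to 99.1 CPM for Brk1. Brk1, the smallest subunit and the highest of this group per kb (chromosome 6, 113604772 to 113616951, plus strand), was at 99.1, 91.9, 74.8 and 95.2 CPM and then at 88.4, 76.5, 85.2 and 90.8 CPM. It did not separate the 8-library groups in either reading. Was, the blood cell form of WASP (X chromosome, 8081453 to 8090498, minus strand), was at 55.1, 56.2, 53.6 and 57.3 CPM and then at 60.8, 57.8, 37.8 and 45.7 CPM. The 2 undisputed KO libraries were the lowest of the 8, with a log2 fold change of -0.37 (SE 0.20, edgeR adjusted p = 0.552). Was was 3.0 to 7.69 times as high per kb as its widely expressed relative Wasl, and its stabilizing partner Wipf1 was at 24.8 to 38.3 CPM.

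Nckap1l, which encodes HEM1, the blood cell form of a WAVE complex subunit (chromosome 15, 103453794 to 103498810, plus strand), followed the code run. It was at 337, 341, 307 and 311 CPM in the earlier run and 251, 264, 263 and 277 CPM in the later. The description-code groups, which are the runs, did not overlap, with a log2 fold change of -0.25 (SE 0.08, edgeR adjusted p = 0.164). By title code the earlier run had both KO libraries below both WT libraries and the later run had overlapping groups, and the term for that difference between runs was 0.27 (SE 0.14, edgeR adjusted p = 0.677).

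The highest formin gene was Fmnl1, which encodes a formin of blood cells (chromosome 11, 103171107 to 103198901, plus strand). It was at 273, 269, 259 and 253 CPM and then at 242, 252, 238 and 236 CPM, a narrow band in which the later run lay below the earlier. Its log2 fold change was -0.08 (SE 0.08, edgeR adjusted p = 0.756) by description code. Per kb it was at least 68.1 times as high as Fmnl3 and at least 107 times as high as Fmnl2 in every library. Fmnl2 was at 0.229, 1.29, 0.858 and 1.32 CPM and then at 0.807, 1.80, 1.63 and 2.53 CPM. Daam1 was at 29.6 to 52.0 CPM and Diaph2 at 13.9 to 27.7 CPM.

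Diaph1, which encodes the formin mDia1 (ENSMUSG00000024456, chromosome 18, 37843601 to 37935476, minus strand), was the member that followed the title-code genotype most closely. It was at 105, 112, 72.2 and 87.7 CPM in the earlier run and 94.5, 113, 83.6 and 77.5 CPM in the later. All 4 title-code KO libraries were below all 4 WT libraries, and this held in each run. Means were 106 ± 8.45 CPM in WT and 80.3 ± 6.78 CPM in KO (SD, n = 4 each). The log2 fold change was -0.41 (SE 0.11, 95% interval -0.64 to -0.17), yet across all genes the adjusted p was 0.973, and 0.563 with the run as a covariate. Within the earlier run alone the value was -0.48 (SE 0.16) and within the later -0.34 (SE 0.14). By description code the groups overlapped.

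Of the genes for severing, capping and monomer binding, Gsn, Cfl1, Dstn, Pfn1 and Tmsb4x had the highest transcript levels per kb. Gsn, which encodes the severing and capping protein gelsolin (chromosome 2, 35256380 to 35307892, plus strand), was the third most abundant member per kb. It was at 2325, 1975, 1903 and 2138 CPM and then at 1971, 2003, 1731 and 1782 CPM. RMN030 was the highest, both undisputed KO libraries were the lowest, and the log2 fold change between the undisputed groups was -0.25 (SE 0.13, edgeR adjusted p = 0.537). Gsn was 9.58 to 13.2 times as high per kb as Capg, which encodes a capping protein of macrophages. The profilin gene Pfn1 was at 311 to 443 CPM, and Cap1, which encodes the cyclase-associated protein that recharges monomers, at 66.5 to 78.3 CPM.

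The cofilin family was split between Cfl1 and Dstn, with Cfl2, the muscle form, at 9.47 to 26.3 CPM. Dstn, which encodes destrin (ENSMUSG00000015932, chromosome 2, 143915320 to 143943324, plus strand), was at 194, 316, 462 and 309.8 CPM in the earlier run and 375, 362, 423 and 392 CPM in the later. RMN030 was the lowest and RMN032, of open genotype, the highest, so the 8-library groups overlapped in both readings. The log2 fold change was 0.73 (SE 0.19, edgeR adjusted p = 0.147) in the undisputed libraries, and 0.43 (SE 0.12) without RMN030. Cfl1 ran the other way across libraries, at 596 to 859 CPM with its highest value in RMN030. The ratio of Cfl1 to Dstn per kb was 2.97 in RMN030 and 0.868 to 1.59 in the other libraries, and by principal transcript it was above 1 in each library, at 1.05 to 3.59.

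Of the thymosins, which hold actin monomers in reserve, Tmsb4x was at 179 to 249 CPM and Tmsb10 at 0.858 to 3.67 CPM. Per kb Tmsb4x was 61.2 to 223 times as high. The coding sequences of the pair are short and match at 70.4% of 135 bases, with 10 bases as the longest identical run, so few reads could match both. Both are printed whole, with the 40 bases that differ in capitals.
Tmsb4x: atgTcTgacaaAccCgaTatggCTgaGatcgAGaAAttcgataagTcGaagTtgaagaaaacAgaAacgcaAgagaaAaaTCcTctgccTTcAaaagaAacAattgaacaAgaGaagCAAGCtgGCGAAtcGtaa
Tmsb10: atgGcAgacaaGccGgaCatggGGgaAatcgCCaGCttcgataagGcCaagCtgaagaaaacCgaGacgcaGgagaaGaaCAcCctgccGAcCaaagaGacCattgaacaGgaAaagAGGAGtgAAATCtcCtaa
Of the windows of Tmsb10, 27.0% occur in other genes, but the most alike of those copies in the table, Gm9844, was at most at 0.633 CPM.

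Coronins, which speed the removal of Arp2/3 branches, were led by the blood cell form Coro1a. Coro1a (chromosome 7, 126699773 to 126707787, minus strand) was at 921, 782, 718 and 786 CPM in the earlier run and 649.8, 673, 660.0 and 659 CPM in the later. The later run lay below the earlier without overlap, and the description-code log2 fold change was -0.24 (SE 0.09, edgeR adjusted p = 0.257) and -0.13 (SE 0.07) without RMN030 and RMN031. Coro1b (chromosome 19, 4148619 to 4154035, plus strand) was at 342, 309, 254 and 308 CPM and then at 272, 322, 267 and 243 CPM. Its title-code KO libraries were lower than WT in each run, with a log2 fold change of -0.22 (SE 0.10, edgeR adjusted p = 0.787) when the run was a covariate. Per kb Coro1a was 2.40 to 3.25 times as high as Coro1b and 12.8 to 18.8 times as high as Coro1c, or 7.38 to 10.8 times by principal transcript.

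Bundling genes were represented by Lcp1, which encodes L-plastin, the filament bundler of blood cells (chromosome 14, 75131101 to 75230842, plus strand). It was at 2692, 2722, 2346 and 2257 CPM and then at 2336, 2367, 2385 and 2432 CPM. RMN030 and RMN031 were the 2 highest, and by title code the later run had KO above WT and the earlier run WT above KO. That difference between the runs had the smallest p of the members in the interaction term, 0.34 (SE 0.11, edgeR adjusted p = 0.441), and in that fit 0 members were called, against 0.0186% of 16146 genes. Actn4 (chromosome 7, 28893248 to 28962340, minus strand) was at 612, 520.3, 592 and 595 CPM and then at 579, 578, 590.0 and 646 CPM. Its log2 fold change was 0.17 (SE 0.14, edgeR adjusted p = 0.728) in the undisputed libraries. Per kb it was 145 to 315 times as high as Actn1, which was at 1.76 to 3.98 CPM.

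Vasp, which protects growing filament ends from capping (chromosome 7, 19256929 to 19271817, minus strand), was the highest Ena/VASP gene. It was at 213, 227, 214 and 217 CPM and then at 209, 224, 195 and 189 CPM. The undisputed KO libraries were the 2 lowest, with a log2 fold change of -0.15 (SE 0.14, edgeR adjusted p = 0.771). Evl was at 1.60, 0.808, 0.674 and 0.422 CPM and then at 0.740, 0.120, 0.426 and 0.362 CPM, which is 21 counts at most. Enah was at 1.14 to 4.58 CPM, so that per kb of all exons Vasp was at least 149 times as high as Evl and at least 381 times as high as Enah. Per kb of the principal transcript it was 131 to 1839 times as high as Evl and 59.6 to 220.4 times as high as Enah.

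Ezrin, radixin and moesin link filaments to the cell membrane. Msn, which encodes moesin (X chromosome, 96096042 to 96168552, plus strand), was at 920.0, 1084, 905 and 848 CPM and then at 944, 956, 955 and 961 CPM, with overlapping groups in every reading. Ezr, which encodes ezrin (chromosome 17, 6738041 to 6782784, minus strand), was at 463, 417, 482 and 457 CPM and then at 505, 541, 526 and 523 CPM. Ezr was higher in every library of the later run, with a description-code log2 fold change of 0.25 (SE 0.08, edgeR adjusted p = 0.147 by edgeR and 0.0277 by DESeq2). Msn was 0.919 to 1.35 times Ezr per kb over all exons but 1.46 to 2.14 times per kb of the principal transcript. The order of these related genes thus depends on the length used. Rdx, which encodes radixin (chromosome 9, 52047173 to 52088735, plus strand), was at 66.9, 88.6, 119 and 101 CPM and then at 99.6, 81.5, 127 and 97.8 CPM. In each run the mean of Rdx was higher in title-code KO, with a log2 fold change of 0.40 (SE 0.13, edgeR adjusted p = 0.652 with the run as a covariate), and RMN030 was again the lowest library.

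**Figure D3:**
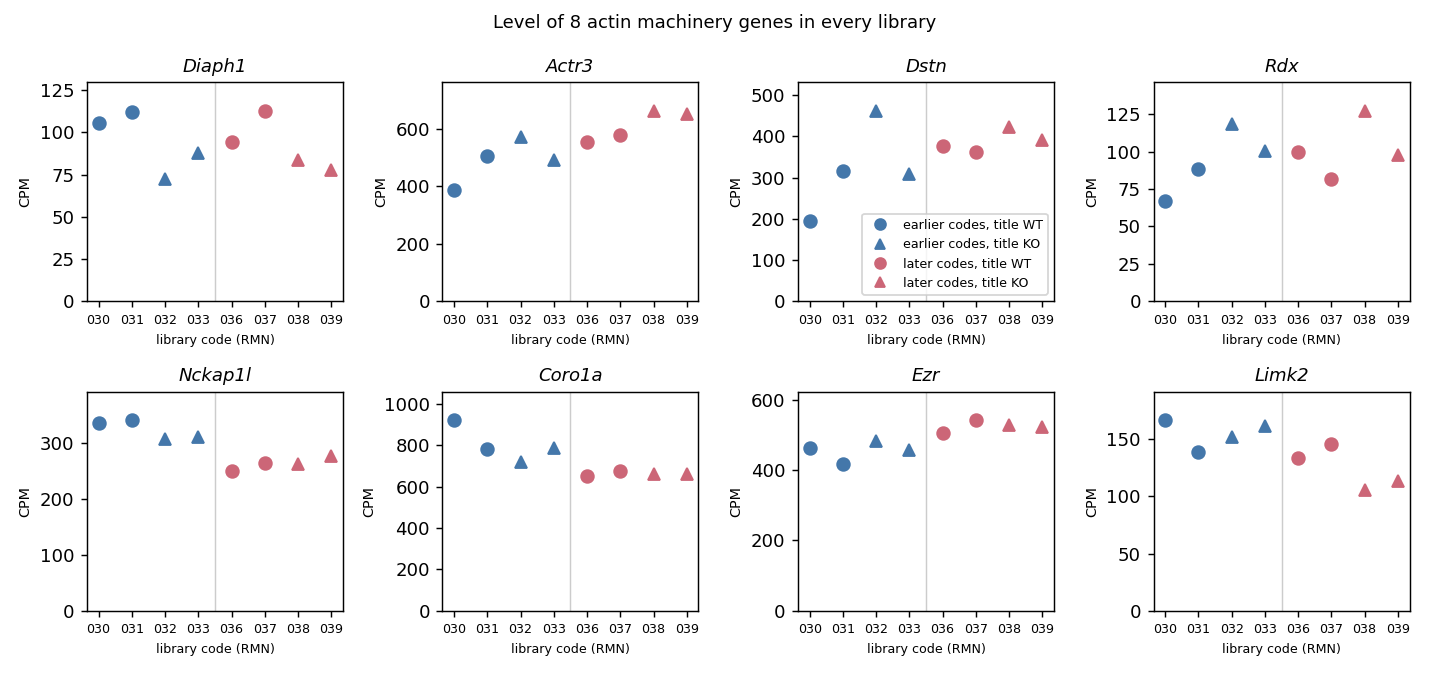
CPM of Diaph1, Actr3, Dstn, Rdx, Nckap1l, Coro1a, Ezr and Limk2 in each library, with axes from 0; circles and triangles are title-code WT and KO, and colours are the code runs. Diaph1 splits by symbol in both runs, Nckap1l, Coro1a and Ezr split by colour, and Actr3 and Dstn have their lowest value in RMN030.

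The heavy chain of non-muscle myosin IIA, a motor of contraction, is encoded by Myh9 (chromosome 15, 77760587 to 77842175, minus strand). Myh9 was at 197, 234, 212 and 214 CPM and then at 205, 215, 180.4 and 171 CPM. Its title-code KO libraries had a log2 fold change of -0.14 (SE 0.09, edgeR adjusted p = 0.867 with the run as a covariate). Of the light chains, Myl12a (chromosome 17, 70993656 to 71002878, minus strand) was at 459.6, 409, 368 and 435 CPM and then at 413, 384, 431 and 454 CPM, with overlapping groups. The neighbouring light chain genes Myl12a and Myl12b match at 96.5% of 519 coding bases with an identical run of 105 bases, and 21.1% and 25.4% of their windows are shared, so reads may have been lost or split between them and their ratio of 1.16 to 1.37 per kb is uncertain. Their first 60 coding bases differ at the 4 positions in capitals.
Myl12a: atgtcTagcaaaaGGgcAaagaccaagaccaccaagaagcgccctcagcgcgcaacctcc
Myl12b: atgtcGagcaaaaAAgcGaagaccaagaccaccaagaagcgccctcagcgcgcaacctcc

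Class I myosins were abundant. Myo1g, a class I myosin of blood cells (chromosome 11, 6506548 to 6520965, minus strand), was at 874, 839.9, 656 and 741 CPM and then at 619.6, 696, 707 and 646 CPM. RMN030 and RMN031 were the 2 highest, and the log2 fold change was -0.30 (SE 0.13, edgeR adjusted p = 0.416) in the undisputed libraries. Myo1f (chromosome 17, 33555707 to 33607764, plus strand) was at 167, 151, 133 and 149.8 CPM and then at 129, 186, 133 and 147 CPM, with overlapping groups. Per kb Myo1g was 1.42 to 2.38 times as high as Myo1e and 2.67 to 3.98 times as high as Myo1f. By principal transcript these ratios were 2.42 to 4.05 and 4.33 to 6.46.

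The kinases that act on cofilin and myosin were low. Limk2, whose product inactivates cofilin (chromosome 11, 3344256 to 3409189, minus strand), was at 167, 139, 152 and 162 CPM and then at 133, 146, 105 and 113 CPM. The 2 undisputed KO libraries were the lowest of the 8, with a log2 fold change of -0.44 (SE 0.16, edgeR adjusted p = 0.336). Limk1 was at 3.74, 4.15, 6.86 and 4.11 CPM and then at 0.740, 2.88, 4.76 and 8.14 CPM, with a title-code log2 fold change of 1.05 (SE 0.46, edgeR adjusted p = 0.998). The other kinase genes, Rock1 and Rock2, were at 46.2 to 88.1 and 29.0 to 48.4 CPM.

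Before adjustment, 10 of 57 members had a p below 0.05 in the undisputed libraries, against 11.3% of all genes. Of these 5 were higher (background 5.93%) and 5 lower in KO (5.32%). The 5 higher were Actr3, Dstn, Rdx, Ezr and Cfl2, and the 5 lower were Limk2, Coro1a, Diaph1, Myo1g and Coro1b. The groups did not overlap in CPM for 30 members, 14 higher (background 16.9%) and 16 lower in KO (25.2%), against 42.1% of all genes in either direction. By title code 4 members had a p below 0.05 (background 4.59%), 2 higher (2.18%) and 2 lower (2.41%). The title-code groups did not overlap for 2 members (2.94%), with Cap1 higher (1.41%) and Diaph1 lower in KO (1.53%). With the run as a covariate 6 had a p below 0.05 (6.15%), 4 higher (3.01%) and 2 lower (3.14%). Within both runs 5 did not overlap (6.9%), with Actg1 and Cap1 higher (3.32%) and Diaph1, Fmnl1 and Coro1b lower in KO (3.58%). By description code 6 had a p below 0.05 (12.6%), 3 higher (6.84%) and 3 lower (5.8%), and 5 did not overlap (8.82%), with Cyfip1 and Ezr higher (3.74%) and Nckap1l, Fmnl1 and Coro1a lower (5.09%). In the interaction term 4 had a p below 0.05 (7.93%), 3 positive (4.05%) and 1 negative (3.88%). The share of members was thus at or below that of all genes by description code and in the interaction term. In the undisputed libraries and by title code, with and without the run, it was above that of all genes by only a few genes. No difference is read from any of these counts. This comparison of shares is a description and was not tested.

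The sizes were small as well. The median log2 fold change of the 57 members was 0.01 in the undisputed libraries, -0.04 by title code with or without the run, and 0.02 by description code, and that of all genes tested lay between -0.0085 and -0.0016. The change was smaller than 0.5 on the log2 scale, in either direction, for 47 members in the undisputed libraries, for 52 by title code and for 55 by description code. Most of all genes tested were below 0.5 too: 10586 of 14727 in the undisputed libraries, 12683 of 14630 by title code and 11967 of 14630 by description code. Small changes were thus not particular to the members. A p that misses the threshold does not show that levels were equal: before adjustment the 95% interval left out 0 for Diaph1, Coro1b, Rdx and Limk1 by title code, and for Actr3, Ezr, Actg1, Nckap1l, Coro1a and Limk2 by description code.

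**Figure D4:**
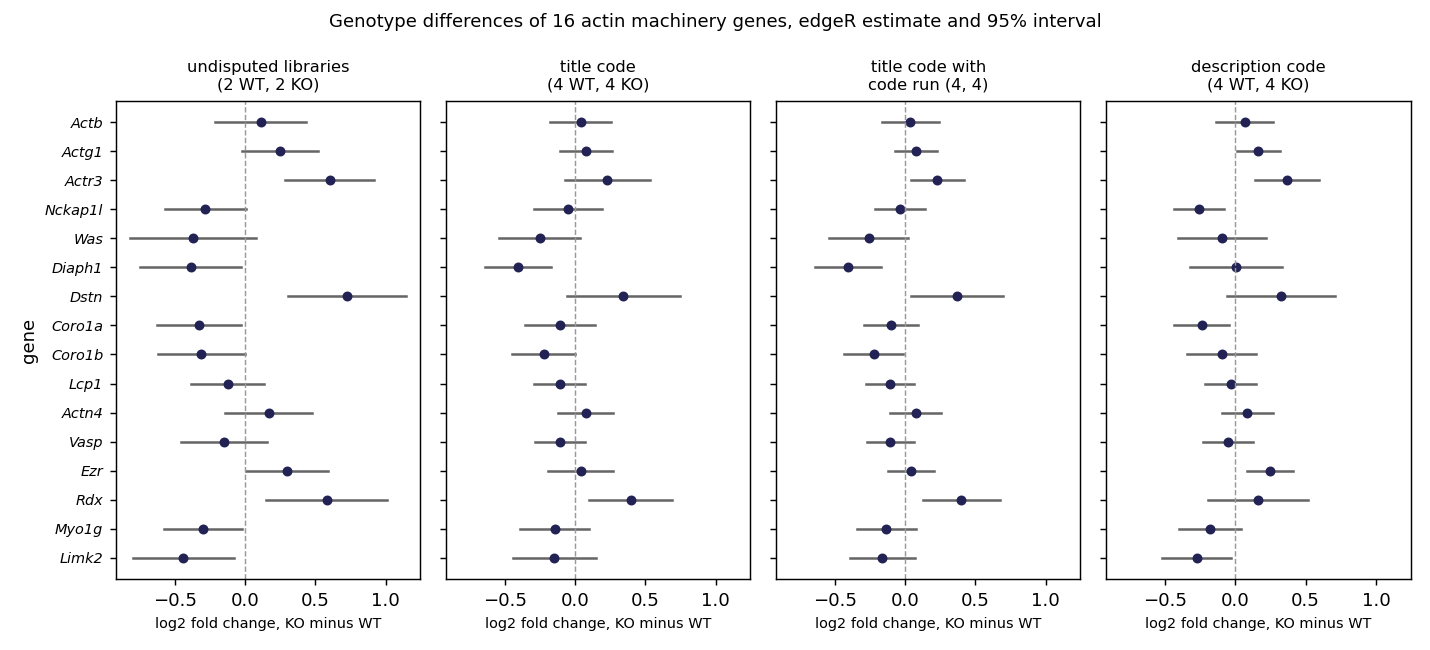
Log2 fold change, KO minus WT, of 16 members in the 4 genotype comparisons. Points are edgeR estimates, bars are 95% intervals not adjusted for the number of genes, and the dashed line marks no difference. Diaph1 lies at -0.41 by title code, Actr3 at 0.60 in the undisputed libraries, and the actin genes Actb and Actg1 within 0.25 of 0 in each.

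The library RMN030, an undisputed WT, stood apart. It held the lowest value of the 8 libraries for 17 of the 56 members with a mean of at least 1 CPM and the highest for 19. That is 64.3% of them, against 35.3% of all genes with such a mean. These shares were not matched for level: 43 of the 56 members had at least 50 CPM, against 3389 of 13831 genes. The 17 included Actr3, Arpc5, Dstn, Abi1, Rdx, Rock1 and Rock2, and the 19 included Actb, Arpc1b, Cfl1, Gsn, Pfn1, Coro1a, Myl6 and Myo1g. Base composition moved with this: the transcripts of the 17 had a median GC content of 44.1%, those of the 19 one of 52.5%, and those of the 20 that were neither one of 52.1%, so that the lowest group stood apart. Across the 56 members, which share the library and its depth, the Spearman correlation of GC content with the deviation of the library from the gene mean was 0.57 in RMN030, 0.44 in RMN033 and -0.56 in RMN038. Over 13785 genes it was 0.41, 0.14 and -0.18 in those libraries. The part of base composition in the genotype comparisons was not tested.

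Leaving out 1 undisputed library left its group with 1, so these fits were read for sizes and not for calls. In each case the lone library of a group was assumed to vary like the other group. Actr3 and Dstn had the smallest p of the members in the undisputed libraries. Their log2 fold changes moved from 0.44 and 0.43 without RMN030 to 0.77 and 1.08 without RMN031. Both stayed higher in KO, but the size depended on which WT library was kept.

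**Figure D5:**
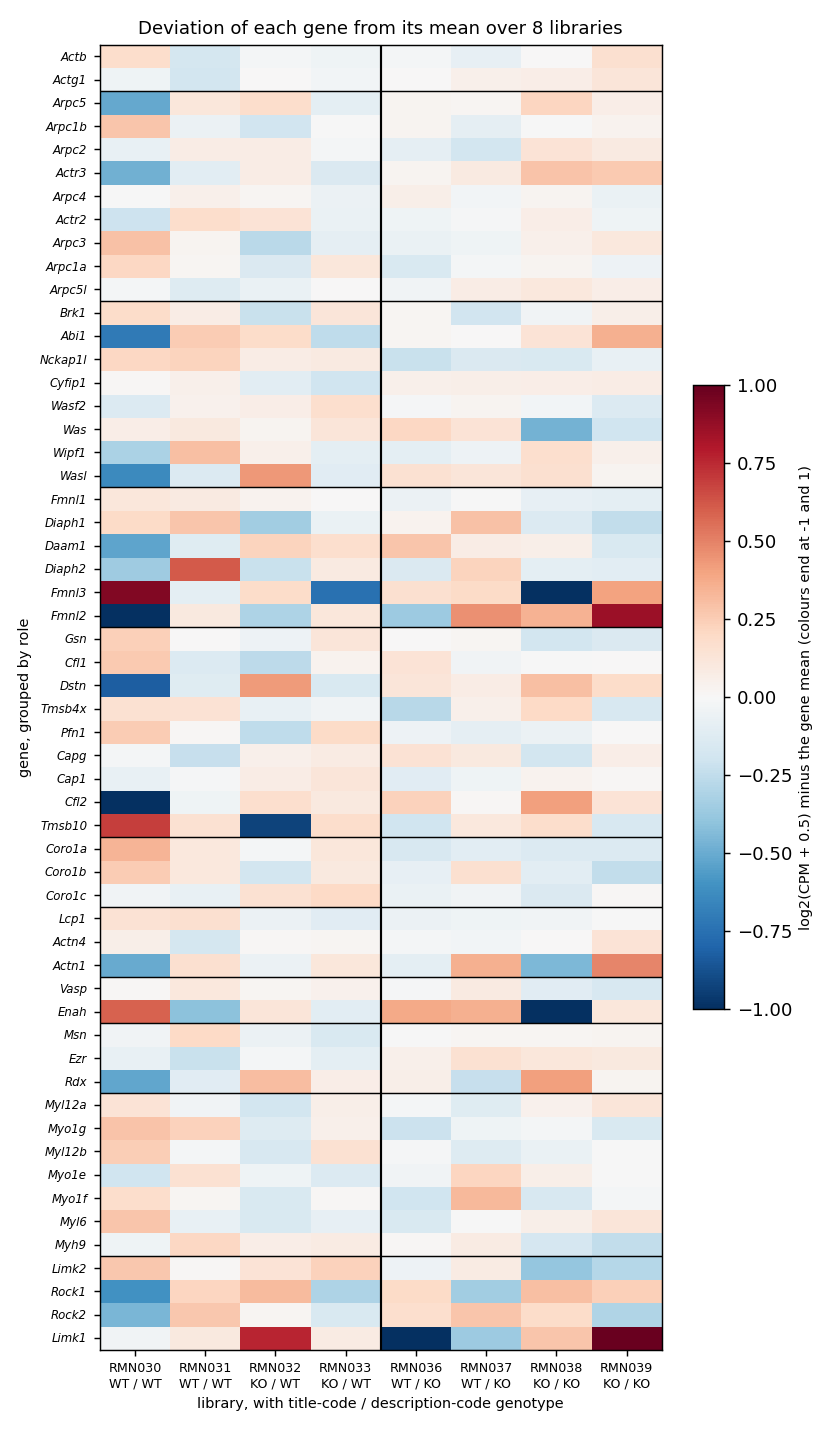
Deviation of each of the 56 members with a mean of at least 1 CPM from its own mean over the 8 libraries, on the log2(CPM + 0.5) scale; columns are libraries with title-code and description-code genotype, rows are genes grouped by role, and the vertical line parts the code runs. The RMN030 column is the most uneven, with Dstn, Abi1 and Rock1 low and Coro1a, Cfl1 and Gsn high, and neither genotype reading forms a block of colour.

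Actin genes are classic targets of serum response factor (SRF), which binds the CArG box. Its cofactors, encoded by Mrtfa and Mrtfb, are held in check by free actin monomers. RefSeq promoters of build GRCm38.p6, from 250 bases before to 50 after the start, were matched for 51 of the 58 members (67 promoters). Actb, Arpc5l, Coro1b, Cyfip1, Diaph1, Nckap1l and Rock1 were not read. A CArG box on either strand was present in 4 of the 67 member promoters (5.97%) and in 535 of 32851 promoters in all (1.63%). The 4 belonged to Actg1, Myl6, Myo1e and Arpc4, and the first base of the box lay 90, 50, 32 and 250 bases before the start. The stretches are shown with the box in capitals, since they are what these 4 members share beyond their role; they lie at chr11:120348551-120348610 (minus strand), chr10:128493025-128493084 (minus strand), chr9:70207293-70207349 (plus strand) and chr6:113377863-113377897 (plus strand).
Actg1: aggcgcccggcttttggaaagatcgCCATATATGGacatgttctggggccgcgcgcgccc
Myl6: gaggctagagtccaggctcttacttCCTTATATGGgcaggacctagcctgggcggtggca
Myo1e: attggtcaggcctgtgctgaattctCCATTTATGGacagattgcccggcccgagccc
Arpc4: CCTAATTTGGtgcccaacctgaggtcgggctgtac
A match of letters is a description and not a binding site, and none of the 4 genes was called in any of the 5 edgeR fits. The 3 genes of SRF and its cofactors, Srf, Mrtfa and Mrtfb, were not called in those fits either.

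A further 58 actin genes were read beside the members, chosen with earlier results of these data known, and some of them were called by edgeR. In the undisputed libraries 1 of 56 was higher in KO (Rac1; 0.448% of all genes) and 2 were lower (Rac2 and Rhoh; 0.346%). By description code 2 of 54 were higher (1.43% of all genes), the GTPase gene Rhob and the filament bundler gene Fscn1, and 0 were lower. By title code, with or without the run, and in the interaction term 0 were called, with 3 of 54, 5 of 54 and 8 of 57 genes at an unadjusted p below 0.05 (4.59%, 6.15% and 7.93% of all genes) and, by DESeq2, 0, 0 and 1 called. Rac1, Rac2 and Rhoh were called lower in KO by title code in the earlier run alone, and again with the run as a covariate when no filter was set.

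Rac1, the GTPase that switches on the WAVE complex (chromosome 5, 143503634 to 143528036, minus strand), was at 183, 150.3, 60.3 and 36.1 CPM in the earlier run and 399.8, 420.2, 554 and 292 CPM in the later. Its range of 15.4-fold was far wider than that of the WAVE genes it acts on, and the later run lay above the earlier throughout. The log2 fold change was 1.39 (SE 0.25, edgeR adjusted p = 0.0272) in the undisputed libraries. There Rac1 was also called by limma voom (adjusted p = 0.00719), with RLE scaling, with no filter and with a filter of 1 CPM, but not by DESeq2 (adjusted p = 0.104). With 1 library left out the call came and went, and each such fit leaves 1 library in a group. The log2 fold change was then 0.85 without RMN038 and 1.76 without RMN039. By description code it was 1.99 (SE 0.49, edgeR adjusted p = 0.0967), called by DESeq2 (adjusted p = 0.00507) and limma voom (adjusted p = 0.00173). By title code Rac1 went the other way, at -0.86 (SE 0.38, edgeR adjusted p = 0.805) with the run as a covariate, called lower in KO when no filter was set (adjusted p = 2.51e-11). In the earlier run alone edgeR called it lower in title-code KO (-1.83, SE 0.23, adjusted p = 0.00666), while the later run had overlapping groups. Rac2, the blood cell form (chromosome 15, 78559167 to 78572783, minus strand), was at 16.6, 14.4, 0.980 and 1.11 CPM and then at 2.96, 3.0, 2.56 and 2.90 CPM. Rhoh, a GTPase of lymphoid cells, was at 16.8 and 15.0 CPM in RMN030 and RMN031, at 2.10 CPM in RMN037 and at 0 counts in the other libraries, where a count of 0 allows up to 0.158 to 0.271 CPM. Rac2 and Rhoh were thus high in the same libraries in which T lineage markers summed to 354 and 363 CPM. The part of those cells in both results was not tested.

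Rhob (chromosome 12, 8497661 to 8500009, minus strand) was at 11.5, 12.2, 13.2 and 12 CPM in the earlier run and 30.7, 21.1, 26.0 and 25.7 CPM in the later. The runs did not overlap, and the description-code log2 fold change was 1.12 (SE 0.17, edgeR adjusted p = 0.00377). Fscn1 (chromosome 5, 142960343 to 142973185, plus strand), a gene of maturing dendritic cells, was at 13.1, 9.16, 10.0 and 8.23 CPM and then at 31.3, 43.2, 16.2 and 30 CPM. Its description-code log2 fold change was 1.61 (SE 0.27, edgeR adjusted p = 0.00661), while within the later run both title-code WT libraries were above both KO libraries. For both genes genotype by description code and code run cannot be told apart, and blood and fibroblast markers and the mitochondrial share were also higher in the later run.

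Of the other genes with small p, Vav1, an exchange factor for Rac (chromosome 17, 57279100 to 57328031, plus strand), was at 113, 103, 80.0 and 94.6 CPM and then at 106, 103, 75.9 and 90.3 CPM. Like Diaph1, it had all 4 title-code KO libraries below all 4 WT libraries, with a log2 fold change of -0.32 (SE 0.11, edgeR adjusted p = 0.998). Dock8, an exchange factor for Cdc42, was at 181, 172, 149 and 129 CPM and then at 135, 143, 113 and 126 CPM, with -0.51 (SE 0.15, edgeR adjusted p = 0.200) in the undisputed libraries. Swap70, which encodes a Rac-binding protein that bundles actin, was at 412, 471, 404 and 386 CPM and then at 339.6, 351, 405 and 405 CPM, with an interaction term of 0.46 (SE 0.13, edgeR adjusted p = 0.405).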

How the data were processed

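Bulk RNA-seq was done on 8 libraries. The values are gene counts that the authors deposited, made with STAR 2.5.2b and featureCounts 1.5.0 on GRCm38/mm10 per the submitters' processing notes. The annotation release and the use of strand are not given in the sources used here. Among counts from 1 to 20, 60.1% were even, and whether both mates of a fragment were counted was not tested. Gene names matched 25080 identifiers and failed for 167. Columns carry codes, which title and description assign to different genotypes for 4 libraries.

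Tests used edgeR 4.0.16 (quasi-likelihood, TMM, filterByExpr) in R 4.3.3, and p was adjusted over all genes by the Benjamini-Hochberg method, with calls below 0.05. Alternatives were DESeq2 1.42.0, limma 3.58.1 (voom), other filters and scaling, and libraries left out. CPM divides counts by the library total. Levels per kb, shared 50-base windows and coding sequences used GENCODE vM21. The test was run on simulated counts with the same dispersion for every gene and no run difference. That check therefore does not cover the spread and run difference of these data. Named genes are the actins and, for each role, the highest member per kb and the smallest p in each genotype fit, plus genes called in any fit and, of other actin genes, up to 3 per fit. Others were named after their values were seen, among them Fmnl2 and Evl. Members and lists were chosen with earlier results of these data known.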

Additional observations from a re-analysis of the deposited data

Results flagged for a closer look

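In 3 of 108 groups of 4 libraries 1 library lay far from the others; chance alone gives about 1 in 20 groups. Gsn was at 2325 CPM in RMN030, against 1971 to 2003 CPM in the other title-code WT libraries. Actn4 was at 646 CPM in RMN039, against 590.0 to 595 CPM in the other title-code KO libraries. Limk1 was at 6.86 CPM in RMN032, against 3.74 to 4.15 CPM in the other description-code WT libraries.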

How the results depend on the processing

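The 58 genes gave 0 calls by title code, with or without the run, and in the interaction term under every alternative run; by description code DESeq2 gave 2 and every other alternative 0. In the undisputed libraries the count was 0 with RLE scaling and with a filter of 1 CPM, 2 (Actr3 and Dstn each time) with limma voom, with DESeq2 or with no filter, and 0 to 12 when 1 library was left out. The number of members with an unadjusted p below 0.05 then ran from 4 to 20. Over all genes, 117 calls in the undisputed libraries became 305 with DESeq2, 440 when no filter was set and 263 to 629 with 1 library left out. By description code 296 calls became 660 with DESeq2, 174 with the replicate block and 140 to 219 with 1 library left out. By title code 0 calls became 19 with DESeq2, and with the run as a covariate 46 with DESeq2, 3 with limma voom and 139 when no filter was set, while the interaction term went from 3 to 178 without a filter and 97 with DESeq2. The cause was not tested.

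Of the single-gene values, 809 kept their direction and side of the threshold, 30 passed it, 3 no longer did, and 9 changed sign, all of them uncalled. Leaving out 1 library, Actb ranged from -0.0809 (without RMN031) to 0.32 in the undisputed libraries, from -0.0222 (without RMN039; -0.0216 without RMN031) to 0.12 by title code, and from -0.0215 (without RMN039; -0.0207 without RMN031 and -0.00887 without RMN037) to 0.15 with the run as a covariate. By title code in the earlier run alone Actb was -0.0849. Lcp1 became 0.0617 by title code in the later run alone and 0.0623, with the run as a covariate, without RMN030 and RMN031.

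With the replicate number as a block, 0 members were called by title code, by description code and in the interaction term. The numbers did not pair the libraries: correlations of same-numbered libraries were 0.05 to 0.10 by title and -0.01 to 0.03 by description, and 1 of 4 pairs per reading had its own number as best partner. The undisputed groups share no number, so no block could be fitted there. Paralogue ratios per kb of the principal transcript, an alternative chosen after seeing the data, kept the order of their medians except for Msn and Ezr. In single libraries Cfl1/Dstn and Rock1/Rock2 fell below 1 over all exons (lowest 0.868 and 0.881) but not by principal transcript (lowest 1.05 and 1.36). Evl, at 2 to 21 counts per library, had an SE of 1.06 on the log2 scale in the undisputed libraries, so differences within that error were not detectable at this depth.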
